A study of Saccharomyces cerevisiae with 18 samples.

Results

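The tRNA genes of budding yeast are described here across doses of α-pheromone. They were taken as every gene name in the deposited tables that has the form of a tRNA gene (t, the 1-letter amino acid, the anticodon in brackets, a chromosome letter and, for repeats, a number, as in tQ(UUG)D2), which gave 299 of 7126 gene names. RNA was sequenced from *MAT***a** cells 60 min after addition of pheromone, in 2 experiments of 9 libraries each, with 1 library per dose and experiment. The doses were 0, 1, 5, 10, 15, 20, 50, 100 and 500 nM in experiment 1, while experiment 2 had 0, 0.05, 0.25, 1, 5, 10, 20, 50 and 500 nM. All cells were of strain yAA95, a derivative of SEY6210a, so the mock-treated cells carried every allele that the treated cells did. Made in this strain were deletions of *BAR1*, *MFα1*, *MFα2* and *ARG4* and a *FUS1* promoter driving the reporter Ubi(I)-sfGFP at *ura3*. From its parent, per the study's methods, it has *lys2-801*, *suc2Δ9* and *trp1Δ901*, with *his3Δ200*, the *ura3-52* allele and *leu2-3,112*, and loss-of-function mutations in *KSS1*. It is 1 strain whose genome was not analysed here, so that tRNA genes and transposons are given as in the reference genome.

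Transfer RNAs carry amino acids to the ribosome. Their genes are short, are transcribed by RNA polymerase III from promoter elements inside the gene (the A box and the B box), and occur in many identical copies spread over the genome. The retrotransposon Ty3 inserts a few bases upstream of tRNA genes, and the single long terminal repeats (LTRs) that it leaves behind hold a promoter for RNA polymerase II with the pheromone response element TGAAACA, to which the transcription factor Ste12 of the mating pathway binds.

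The deposited unit is RPKM, reads scaled by the length of the transcript and by the mapped reads of the library. The libraries held 4869970 to 16659994 mapped reads, as recovered from the steps between low RPKM values, and the smallest was the 500 nM library of experiment 1. A single read on a tRNA gene of 72 bases was worth 0.845 to 2.89 RPKM. Over the nuclear tRNA genes the median of the mean level was 0.547 RPKM, where that over all genes tested was 33.9 RPKM. The floor of 3 reads lay at 2.54 to 8.68 RPKM, and it covers counting error only. tRNA genes took 0.00436% to 0.0427% of the mapped reads, which is 328 to 4970 reads per library. *FUS1*, the mating gene used to check that the cells responded, was at 18.8 to 27.4 RPKM at 0, 0.05 and 0.25 nM and at 238 to 391 RPKM at 20 nM and above. Of the markers of *MAT***a** cells, 6 of 7 were expressed and the deleted *BAR1* was near 0. Of the 5 markers of *MAT*α cells, 3 were at or near 0, among them the deleted *MFα1* and *MFα2*. The other two, *STE3* and *SAG1*, had means of 2.09 and 7.30 RPKM at 0.25 nM and under.

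To ask which tRNA genes changed at doses that give a strong response, 7 high-dose libraries (20 nM and above) were set against 4 low-dose ones (0.25 nM and under). The test was limma, with log2(RPKM + 1) as the value and experiment as a blocking term. A call needed a change of at least 2-fold and, after Benjamini-Hochberg adjustment over all genes, p below 0.05. Fold changes are on that scale, with their standard errors (SE), and it understates the change of low genes. RPKM is relative to all mapped reads, so that more RNA of a gene per cell and a larger share of responding cells cannot be told apart. 11 tRNA genes were called higher and 6 lower. Among all 6002 genes tested, 2.28% were called higher and 4.4% lower. Of the 299 tRNA genes, 98 reached the mean of 1 RPKM needed for the test, 81 of these were not called, and 201 stayed below it. A gene that is high only at high doses can pass that minimum through those libraries alone, so the counts describe the genes that passed and not the family. 48 tRNA genes were listed at 0 in all libraries, 24 of them the mitochondrial ones (letter Q in the name).

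Of the 11 higher genes, 9 had log2 fold changes from 4.04 to 7.77, and the other two, tM(CAU)O1 and tN(GUU)N1, had 1.85 and 1.20. The 9 genes belong to 8 anticodons, since tA(AGC)H and tA(AGC)P share one, and they decode glutamine, arginine, histidine, alanine, aspartate, proline, glycine and isoleucine codons. Their sequences in the reference genome R64 (RefSeq) are given first, because a 50-base read that lies inside a tRNA gene cannot be placed among identical copies. Capitals mark the B box, searched for as GTTCNANNC.
tQ(UUG)D2: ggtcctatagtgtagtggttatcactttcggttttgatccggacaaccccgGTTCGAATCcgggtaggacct
tR(UCU)G3: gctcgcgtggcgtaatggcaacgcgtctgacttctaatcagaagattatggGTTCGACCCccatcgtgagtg
tH(GUG)E2: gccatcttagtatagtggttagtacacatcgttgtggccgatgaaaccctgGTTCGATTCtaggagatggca
tA(AGC)H: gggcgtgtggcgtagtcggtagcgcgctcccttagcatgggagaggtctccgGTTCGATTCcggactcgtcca
tD(GUC)L2: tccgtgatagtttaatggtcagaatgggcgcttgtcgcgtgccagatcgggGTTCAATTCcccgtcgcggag
tP(UGG)N1: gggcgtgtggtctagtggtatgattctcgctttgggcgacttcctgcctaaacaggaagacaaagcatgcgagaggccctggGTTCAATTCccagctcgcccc
tG(GCC)G1: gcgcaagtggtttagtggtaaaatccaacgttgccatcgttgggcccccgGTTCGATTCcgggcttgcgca
tI(AAU)I2: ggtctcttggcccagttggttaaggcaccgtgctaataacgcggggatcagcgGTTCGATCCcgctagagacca

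Each of these sequences occurs more than once in R64. There are 3 copies of the tP(UGG)N1 sequence, 7 each of tQ(UUG)D2 and tH(GUG)E2, 11 each of tR(UCU)G3 and tA(AGC)H, 13 of tI(AAU)I2, 15 of tD(GUC)L2 and 16 of tG(GCC)G1. tA(AGC)P has the sequence printed for tA(AGC)H. The B box letters are found in 270 of the 275 nuclear tRNA loci, so they do not set these genes apart. The number at the end of a name is not paired with a position in the annotation used, which gives amino acid, anticodon and chromosome. By these, 151 of the tRNA gene names match 1 locus. tA(AGC)H is at chrVIII:146242-146314, minus strand, and tA(AGC)P at chrXVI:856902-856974, plus strand, in R64. The names of the other 7 genes match 2 or 3 loci on their chromosome with identical sequence, and every locus of the name was then considered.

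tH(GUG)E2, a histidine tRNA gene with anticodon GUG on chromosome V, reached the highest level of any tRNA gene. It was at 5.84 RPKM in the mock-treated library of experiment 1 and at 5.96, 6.91 and 5.80 RPKM at 0, 0.05 and 0.25 nM in experiment 2. In the 7 libraries at 20 nM and above the lowest value was 221 RPKM, the median 1189 RPKM and the highest 1863 RPKM. The 20 nM library of experiment 1 was the lowest and the 500 nM library of experiment 2 the highest, and the groups did not overlap. On the log2 scale the change came to 7.09 (SE 0.49, adjusted p = 2.0e-06, limma).

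tR(UCU)G3, an arginine tRNA gene on chromosome VII, was at 2.92 RPKM in the mock-treated library of experiment 1 and at 9.54, 4.15 and 5.80 RPKM at 0, 0.05 and 0.25 nM in experiment 2. At 20 nM and above its lowest value was 222 RPKM, its median 1027 RPKM and its highest 1560 RPKM. The order of the libraries was nearly that of tH(GUG)E2, with the 20 nM library of experiment 1 lowest. On the log2 scale the difference was 7.19 (SE 0.47, adjusted p = 1.4e-06, limma).

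tQ(UUG)D2, a glutamine tRNA gene on chromosome IV, had the largest log2 fold change of the tRNA genes, 7.77 (SE 0.62, adjusted p = 5.3e-06, limma). It was listed at 1.46 RPKM in the mock-treated library of experiment 1 and at 0, 2.76 and 0 RPKM at 0, 0.05 and 0.25 nM in experiment 2. At 20 nM and above it had 104 RPKM at the lowest, 495 RPKM at the median and 815 RPKM at the highest. The 4 low libraries together held 3 reads and the 7 high libraries 2502, so that the low level rests on counts near 0. The ratio of reads per mapped read was 451, with an exact 95% interval of 154 to 2187.

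The other 6 genes reached lower levels. tG(GCC)G1, a glycine tRNA gene, was at 0 RPKM in the mock-treated library of experiment 1 and at 26.6, 12.6 and 10.3 RPKM at 0, 0.05 and 0.25 nM in experiment 2. It was at 69.9 to 419 RPKM (median 273) at 20 nM and above. The groups did not overlap, although the mock-treated libraries of the experiments differed by more RPKM for this gene than for any other of the 9. On the log2 scale the difference was 5.02 (SE 0.79, adjusted p = 7.2e-04, limma), and it was 3.64 without the mock-treated library of experiment 1.

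tD(GUC)L2, an aspartate tRNA gene, was at 0 to 4.35 RPKM at 0.25 nM and under and at 28.8 to 236 RPKM at 20 nM and above, a log2 fold change of 5.57 (SE 0.57, adjusted p = 3.3e-05, limma). tP(UGG)N1, a proline tRNA gene with an intron, was at 0 to 6.05 RPKM and at 43.4 to 182 RPKM, a change of 5.54 on the log2 scale (SE 0.52, adjusted p = 2.0e-05). Neither gene had an overlap between the groups.

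The alanine genes tA(AGC)H and tA(AGC)P were at 0 to 1.43 RPKM and 0 to 3.53 RPKM at 0.25 nM and under. At 20 nM and above they were at 28.4 to 221 RPKM and 10.6 to 104 RPKM, with log2 fold changes of 6.30 (SE 0.55, adjusted p = 1.0e-05, limma) and 4.04 (SE 0.65, adjusted p = 8.5e-04). Both names match 1 locus each, and the gene sequences are identical. tA(AGC)H had 2 reads in the low libraries and 684 in the high ones, a ratio of 185 per mapped read with an exact 95% interval of 51.0 to 1529. tI(AAU)I2, an isoleucine tRNA gene, was at 0, 0, 0 and 4.23 RPKM at 0.25 nM and under and at 5.83 to 45.5 RPKM at 20 nM and above. Its difference on the log2 scale was 4.08 (SE 0.59, adjusted p = 3.8e-04, limma), and its read ratio was 25.6 (exact 95% interval 8.58 to 126).

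**Figure D1:**
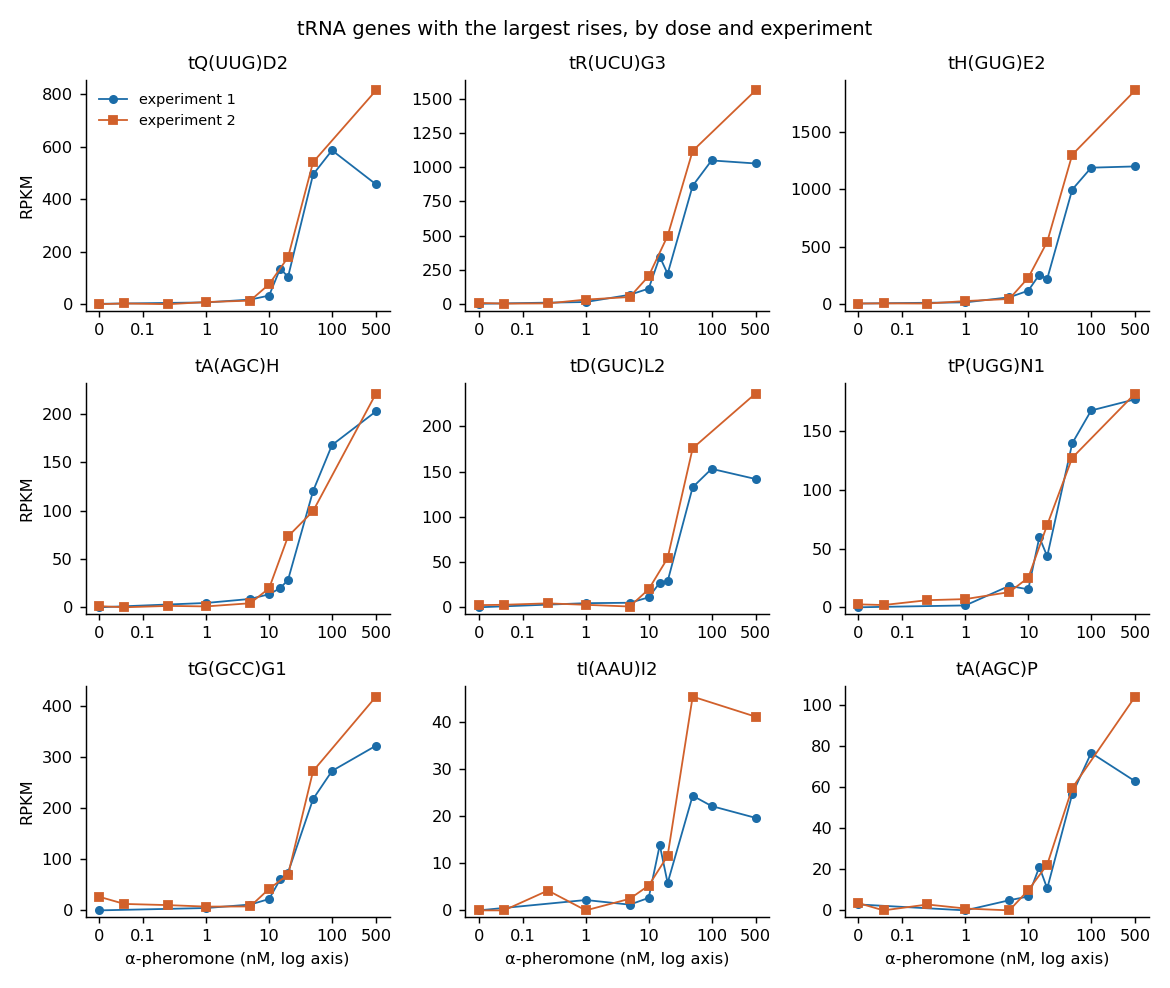
RPKM (linear axis) of the 9 tRNA genes with the largest rises against the dose of α-pheromone in nM (log axis, with 0 nM drawn at the left), 1 point per library, circles for experiment 1 and squares for experiment 2. Up to 1 nM no value is above 33.7 RPKM, and at 500 nM in experiment 2 tH(GUG)E2 reaches 1863 RPKM.

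The 9 genes were first called at different doses. In a joint fit to the 18 libraries, which 90 tRNA genes entered, doses present in both experiments were set against 0 nM. At 1 nM, 1 tRNA gene was called higher, against 0.267% of all 5995 genes tested. It was tR(UCU)G3, at 15.9 and 33.7 RPKM in the experiments, with a log2 fold change of 1.91 (SE 0.34, adjusted p = 0.0487, limma), just under the threshold, and it was not called there without the block, with limma-voom, with a pseudocount of 5 or with no filter on low values. At 5 nM there were 4, tR(UCU)G3 with tH(GUG)E2, tQ(UUG)D2 and tP(UGG)N1, against 0.601% of all genes. At 10 nM tA(AGC)H, tD(GUC)L2 and tI(AAU)I2 joined them, which gave 7 (1.55% of all genes were called higher), and at 20 nM tG(GCC)G1 made 8 (1.77%). tA(AGC)P was first called at 50 nM. A first call depends on the SE as well as on the size of the change. At 10 nM tG(GCC)G1 had a log2 fold change of 2.59 (SE 0.99) and was not called. tI(AAU)I2 had 2.26 (SE 0.55) there and was called.

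At 50 nM, 10 tRNA genes were called higher and at 500 nM 12, where 2.2% and 5.42% of all genes were. These counts hold all 9 genes at both doses. The others were tK(UUU)D at 50 nM, and tN(GUU)N1, tH(GUG)M and tS(AGA)D2 at 500 nM. Of these, tK(UUU)D, tH(GUG)M and tS(AGA)D2 are named after their values were seen.

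The dose at the midpoint of the response (EC50) was fitted with a sigmoidal Hill function to RPKM over the highest RPKM of the experiment. For the 9 genes the fit explained 91.0% to 99.5% of the variance, and the EC50 was 24.0 nM for tI(AAU)I2, 28.9 nM for tP(UGG)N1 and tR(UCU)G3, 31.0 nM for tH(GUG)E2, 31.1 nM for tD(GUC)L2, 32.3 nM for tQ(UUG)D2, 36.9 nM for tA(AGC)P, 38.1 nM for tG(GCC)G1 and 45.3 nM for tA(AGC)H. In separate fits to experiments 1 and 2, tD(GUC)L2 had 29.9 and 32.8 nM, tA(AGC)H 44.6 and 48.9 nM, and tQ(UUG)D2 29.9 and 36.3 nM, a gap wider than most between neighbours in this order. Differences between genes were not tested. Without the 500 nM libraries the 9 values lay between 22.6 and 27.7 nM, and with the fit on log2(RPKM + 1) between 5.50 and 14.8 nM, so that the values depend on the scale and on the highest dose. For *FUS1* the same fit gave 11.2 nM. tM(CAU)O1 and tN(GUU)N1 get no EC50, since their fits explained 34.9% and 47.6% of the variance.

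In experiment 1 the libraries at 15 and 20 nM were out of order for 6 of the 9 genes. tR(UCU)G3 was at 346 RPKM at 15 nM and at 222 RPKM at 20 nM, and tQ(UUG)D2 at 136 and 104 RPKM. *FUS1* was likewise at 322 RPKM at 15 nM and at 270 RPKM at 20 nM. The 15 nM library was used in no comparison between groups.

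The experiments were compared for the size of the change by an interaction term, fitted for 98 tRNA genes among the 6002 genes tested. Its low group in experiment 1 was the mock-treated library alone. A lack of calls therefore does not mean that the experiments were alike. No gene of 6002 was called (limma, adjusted p under 0.05), and at an unadjusted p under 0.05 there were 72 genes (1.2%), 10 of them tRNA genes. Of the 9 genes tG(GCC)G1 was among these, with a log2 difference of experiment 2 minus experiment 1 of -3.97 (SE 1.20, adjusted p = 1.00). Its mock-treated library was at 0 RPKM in experiment 1 and at 26.6 RPKM in experiment 2.

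The 2 smaller rises rest on few reads. tM(CAU)O1, a methionine tRNA gene, was at 0, 1.19, 0 and 0 RPKM at 0.25 nM and under, which is 1 read in all. At 20 nM and above it was at 1.19 to 8.68 RPKM, or 19 reads, a log2 difference of 1.85 (SE 0.40, adjusted p = 0.0052, limma). The ratio of reads per mapped read was 10.3, with an exact 95% interval of 1.63 to 427. It was not called against the mock-treated libraries alone or with a pseudocount of 5. tN(GUU)N1, an asparagine tRNA gene, had 3 reads at low and 14 at high doses, a ratio of 2.52 (exact 95% interval 0.704 to 13.7) that includes no change, and its groups overlapped. Its difference on the log2 scale was 1.20 (SE 0.35, adjusted p = 0.0227, limma), and it was not called without the 0 nM library of experiment 1, the 0.05 nM or the 500 nM library of experiment 2, with adjusted p values up to 0.142.

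What lies upstream of the genes was then read from the R64 annotation. Of the 275 nuclear tRNA loci, 36 have a Ty3 LTR within 500 bases upstream, always at 14 to 47 bases from the tRNA gene. In 11 of these the LTR points the same way as the tRNA gene and in 25 the opposite way. The name tR(UCU)G has a locus of each kind, and which of them tR(UCU)G3 is cannot be told from the tables. The 11 loci carry 11 different names of amino acid, anticodon and chromosome, and 8 of these names hold 8 of the 9 genes with the largest rises. The 3 other names are tR(ACG)L, tS(AGA)L and tV(AAC)H. tQ(UUG)D2 is the exception among the 9 genes. None of the 3 loci of its name has a Ty3 LTR within 1000 bases upstream in R64. Whether the strain carries one was not tested.

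The upstream stretches of the 10 loci whose LTR holds TGAAACA are given because the heptamer sits at nearly the same place in all of them. Shown is the strand of the tRNA gene, from 305 to 246 bases before its start, in R64 (RefSeq), with the heptamer in capitals.
tH(GUG)E, chrV:434858-434917, minus strand: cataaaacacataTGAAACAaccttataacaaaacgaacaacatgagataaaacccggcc
tR(UCU)G, chrVII:736035-736094, plus strand: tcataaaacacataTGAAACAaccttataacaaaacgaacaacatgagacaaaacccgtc
tG(GCC)G, chrVII:845344-845403, plus strand: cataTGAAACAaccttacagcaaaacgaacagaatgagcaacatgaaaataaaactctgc
tA(AGC)H, chrVIII:146560-146619, minus strand: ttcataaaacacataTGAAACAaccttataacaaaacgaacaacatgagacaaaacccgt
tI(AAU)I, chrIX:210360-210419, plus strand: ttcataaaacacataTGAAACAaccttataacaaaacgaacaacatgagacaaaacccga
tS(AGA)L, chrXII:168271-168330, minus strand: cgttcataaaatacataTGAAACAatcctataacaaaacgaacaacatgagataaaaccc
tR(ACG)L, chrXII:374050-374109, plus strand: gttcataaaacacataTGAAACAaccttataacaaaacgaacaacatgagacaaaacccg
tD(GUC)L, chrXII:793613-793672, plus strand: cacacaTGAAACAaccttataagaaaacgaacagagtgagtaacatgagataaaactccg
tP(UGG)N, chrXIV:546789-546848, plus strand: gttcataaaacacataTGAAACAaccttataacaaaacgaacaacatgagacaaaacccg
tA(AGC)P, chrXVI:856597-856656, plus strand: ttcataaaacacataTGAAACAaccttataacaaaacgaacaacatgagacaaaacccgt

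Between the heptamer and the tRNA gene lie 281 to 294 bases in these 10 loci. The whole stretch of 300 bases is shown for tA(AGC)H, as the gene with the largest rise whose name matches 1 locus. Its LTR ends 16 bases before the tRNA gene.
tA(AGC)H, chrVIII:146315-146614, minus strand: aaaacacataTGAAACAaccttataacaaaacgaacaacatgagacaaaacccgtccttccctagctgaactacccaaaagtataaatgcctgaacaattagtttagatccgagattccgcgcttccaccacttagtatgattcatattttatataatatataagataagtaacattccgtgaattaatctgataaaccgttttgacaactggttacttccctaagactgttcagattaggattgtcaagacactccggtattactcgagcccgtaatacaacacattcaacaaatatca

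An LTR that points the opposite way carries the heptamer on the other strand and near the tRNA gene. The example is tY(GUA)D, a tyrosine tRNA gene, from 120 to 61 bases before its start, where TGTTTCA is TGAAACA read on the other strand.
tY(GUA)D, chrIV:946192-946251, plus strand: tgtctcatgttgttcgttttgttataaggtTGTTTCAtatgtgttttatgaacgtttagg

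TGAAACA on either strand was found in the 300 bases upstream of 65 of the 275 tRNA loci (23.6%) and of 432 of 6001 protein-coding genes (7.20%). It was found in 9 of the 11 loci with an LTR in the same direction, in 20 of the 25 with an LTR in the opposite direction, and in 36 of the 239 without a Ty3 LTR (15.1%). A match is a run of letters and not a site shown to be bound. At tG(GCC)G the heptamer lies partly outside that window.

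**Figure D2:**
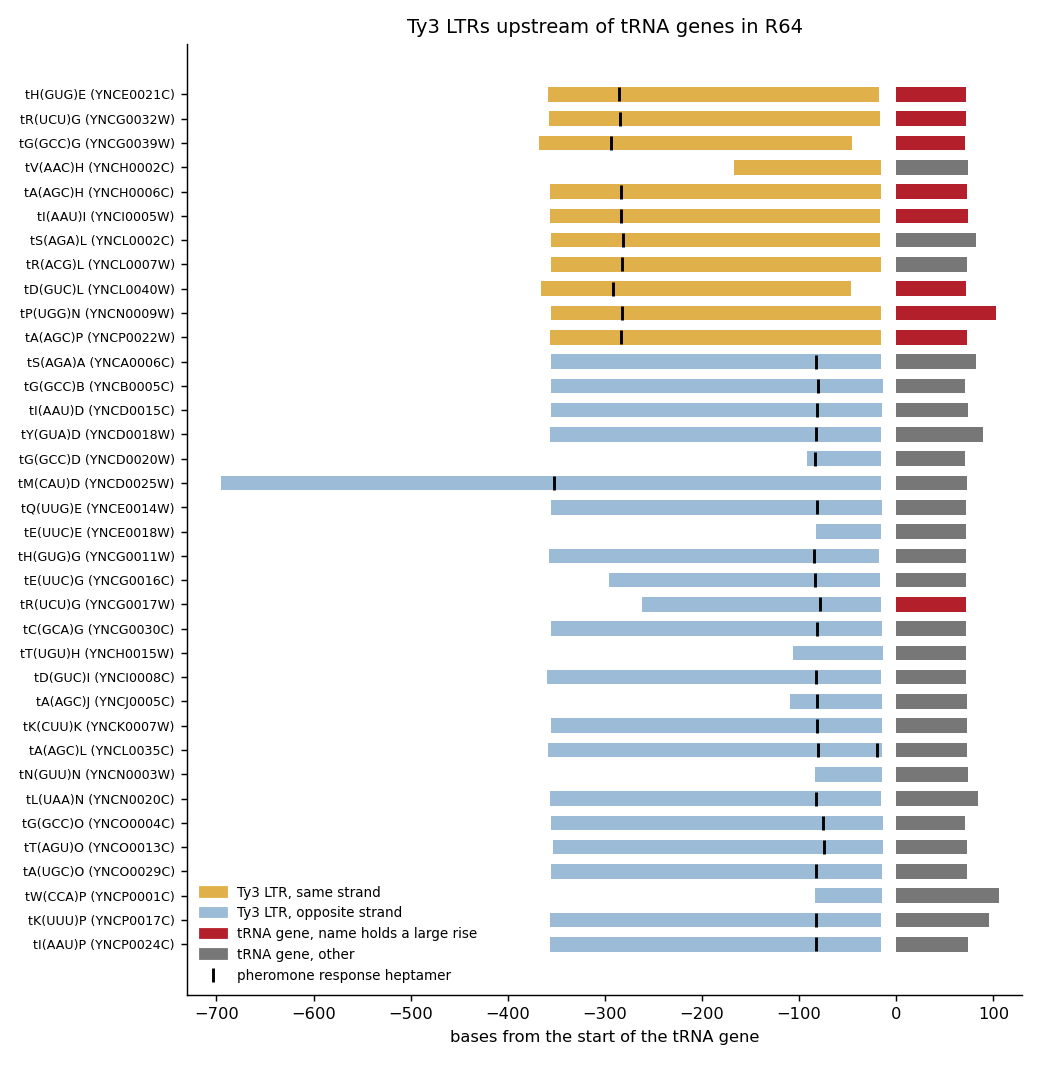
Map of the 36 nuclear tRNA loci of R64 with a Ty3 LTR within 500 bases upstream, by distance in bases from the start of the tRNA gene, with LTRs as yellow bars where they point the same way as the tRNA gene and blue bars where they point the opposite way. Black marks show TGAAACA within the LTR on either strand, which lies 281 to 294 bases upstream in 10 of the 11 loci of the first kind, and red tRNA genes are loci whose name holds a gene with a large rise, 8 with an LTR of the first kind and 1 more locus of the name tR(UCU)G with one of the other kind.

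Of the 11 names with an LTR in the same direction, 8 held a gene called higher and none a gene called lower. Of the 24 names with an LTR in the opposite direction only, 1 did (tN(GUU)N1). Of the 101 with an LTR of another Ty class only, 2 held a gene called higher and 4 a gene called lower, and of the 70 without any LTR, none and 2. The log2 fold changes of the tested genes ran from -1.26 to 7.19 in the first set, from -1.31 to 1.20 in the second, from -1.92 to 7.77 in the third and from -1.49 to 0.90 in the fourth. Windows of 100 and 1000 bases left the first 2 sets as they were. These are counts of names, with no test, and since genes of one name could not be assigned to loci, a name stands for all its genes.

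**Figure D3:**
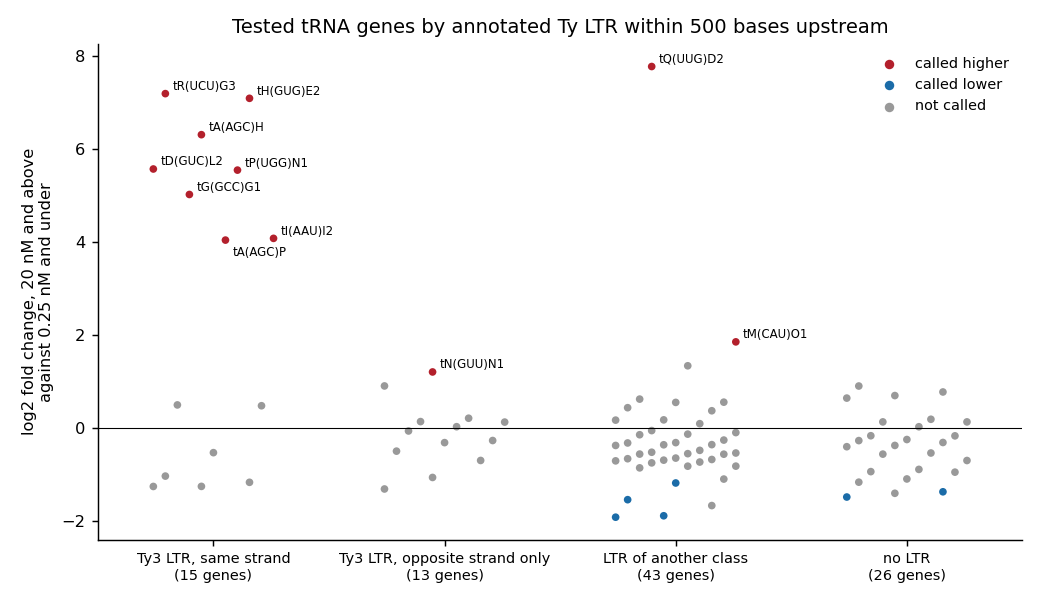
Log2 fold change at 20 nM and above against 0.25 nM and under (vertical axis) of 97 tested tRNA genes, 1 point per gene, by the annotated Ty LTR within 500 bases upstream of any locus of the gene's name; the spread along the horizontal axis only separates points. 8 of the 9 genes above 4 lie in the set with a Ty3 LTR on the same strand, and tQ(UUG)D2 in the set with an LTR of another class.

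9 more gene names carry the amino acid, anticodon and chromosome of a gene with a large rise, and none of them was called higher. tR(UCU)G1 and tR(UCU)G2 were at most at 4.57 and 8.32 RPKM in any library, where tR(UCU)G3 reached 1560 RPKM, and tH(GUG)E1 was at most at 5.96 RPKM. tP(UGG)N2 was at 5.80 ± 5.07 (SD, n = 4) RPKM at low and at 5.99 ± 3.20 (SD, n = 7) RPKM at high doses, with a log2 fold change of 0.48 (SE 0.37, adjusted p = 0.322, limma). The genes of each of these names have identical sequences in R64, and how the authors placed reads that fit several loci is not given in the sources used here.

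Of the 3 names with a same-strand Ty3 LTR and no rise, each has 1 locus and 1 gene. tR(ACG)L, an arginine tRNA gene at chrXII:374355-374427, has an LTR of 340 bases that is 98.5% identical to that of tA(AGC)H and holds the heptamer. It was at 2.32 ± 1.58 (SD, n = 4) RPKM at low and at 0.315 ± 0.539 (SD, n = 7) RPKM at high doses, which is 7 and 2 reads, with a log2 fold change of -1.26 (SE 0.47, adjusted p = 0.0582, limma). Its LTR is as close to that of tA(AGC)H as those of genes that rose, and the state of the locus in the strain was not tested.

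tS(AGA)L, a serine tRNA gene at chrXII:167944-168025, has an LTR of 338 bases with 87.6% identity, and it was at 0 to 6.28 RPKM over the libraries, with a log2 fold change of 0.49 (SE 0.63, adjusted p = 0.554). The LTR upstream of tD(GUC)L was 88.7% identical to the same standard, and that upstream of tG(GCC)G 89.4%, and a gene of each name rose. At tV(AAC)H, a valine tRNA gene at chrVIII:85298-85371, only 151 bases of LTR are annotated, without the heptamer, and there were 0 reads at low and 1 at high doses. The remaining same-strand LTRs were 97.1% to 98.8% identical to that of tA(AGC)H.

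The nearest annotated genes on the same strand were looked up for every locus of a called name, within 1000 bases. *GRX3*, *BOP3* and *KRE6*, downstream of loci of genes that rose, were among those called higher, where 2.28% of all genes tested were. *GRX3* (YDR098C), which encodes a glutaredoxin, begins 222 bases downstream of 1 of the 3 loci named tQ(UUG)D. It was at 87.5, 91.7, 91.8 and 92.0 RPKM at 0.25 nM and under, and at 303 RPKM at the lowest, 1164 RPKM at the median and 1498 RPKM at the highest at 20 nM and above. The 4 low libraries were nearly equal and the groups did not overlap. On the log2 scale the difference was 3.29 (SE 0.47, adjusted p = 3.6e-04, limma). Downstream of the other two loci of that name, *CPP3* (YDR034W-B) was at 10.6 ± 2.14 (SD, n = 4) RPKM at low and at 45.3 ± 43.5 (SD, n = 7) RPKM at high doses, which was not called (adjusted p = 0.137). *SEC7* was at 81.0 and 82.1 RPKM (adjusted p = 0.118).

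*BOP3* (YNL042W) lies 903 bases downstream of the tP(UGG)N locus with the Ty3 LTR. It was at 16.6 to 21.4 RPKM at low and at 120 to 407 RPKM (median 314) at high doses, with a log2 fold change of 3.60 (SE 0.34, adjusted p = 2.0e-05, limma). *KRE6* (YPR159W), which is needed for the synthesis of β-1,6-glucan in the cell wall, lies 608 bases downstream of tA(AGC)P. It was at 132 to 140 RPKM at low and at 200 to 859 RPKM (median 685) at high doses, with a log2 fold change of 1.87 (SE 0.45, adjusted p = 0.0092). For *KRE6* the step fell between 20 nM, with 200 and 216 RPKM in the experiments, and 50 nM, with 685 and 602 RPKM.

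Not every neighbour moved. No neighbour was called at the loci of tR(UCU)G, tH(GUG)E, tD(GUC)L and tI(AAU)I that lack a same-strand Ty3 LTR. The log2 fold changes there were 0.48 for *TYW3*, -0.20 for *GCD11*, -0.27 for *PUT1*, -0.09 for *DPH6* and -0.74 for *BMT5*. YGR174W-A, 935 bases downstream of the tG(GCC)G locus with the LTR, was called higher, with a log2 fold change of 1.11 (adjusted p = 6.0e-04), and *RBG2*, 688 bases upstream of it, was not (-0.22, adjusted p = 0.110). Upstream of the tI(AAU)I locus with the LTR, at 532 bases, lies YIL082W-A, an open reading frame of Ty3 itself. Near the tM(CAU)O loci, YOR343W-B was called higher (log2 fold change 1.25, adjusted p = 2.5e-05, limma), with means of only 1.25 and 4.95 RPKM at low and high doses. *PEX27*, downstream of the other locus of that name, was not called (0.51). Near the loci named tP(UGG)O, *SGO1* was called lower (-1.03, adjusted p = 2.0e-04). Its locus is 1 of 3 of the name of tP(UGG)O1. The neighbours of the other lower genes were not called. Their log2 fold changes were -0.08 for *ATP1*, -0.37 for *URA10*, -0.48 for *ERF2*, 0.24 for *CLU1* and 0.37 for *ASI1*. RPKM counts the reads over a gene, so that a mature tRNA, its precursor and a longer transcript that runs over the gene cannot be told apart.

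The 4 open reading frames of Ty3 rose too. YIL082W was at 13.1, 3.20, 5.51 and 7.90 RPKM at 0.25 nM and under and at 166 to 707 RPKM at 20 nM and above, and the log2 fold changes of the 4 frames were 4.89 to 5.19 (limma, all called). In the fit to RPKM with all doses, their EC50 values of 17.9 to 22.8 nM lay below those of the 9 tRNA genes. This difference was not tested, and the values of the tRNA genes shifted with the scale and the highest dose. Ty3 occurs in more than one copy, so that reads of these frames may be shared between them.

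The 6 genes called lower had means of 1.99 to 21.4 RPKM at 0.25 nM and under, and their highest value at 20 nM and above was 11.6 RPKM. tP(UGG)O1, a proline tRNA gene, was at 18.5, 10.9, 4.86 and 10.2 RPKM at 0.25 nM and under and at 0.731 to 5.06 RPKM (median 3.36) at 20 nM and above. Its groups overlapped by 1 library, at 0.05 nM, and the reads were 46 at low and 20 at high doses. On the log2 scale the difference was -1.92 (SE 0.40, adjusted p = 0.0037, limma). It was the only tRNA gene called lower at 5 nM (0.183% of all genes were), and it stayed called at every higher shared dose.

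tF(GAA)B, a phenylalanine tRNA gene, was at 3.45, 4.70, 4.36 and 5.72 RPKM at low doses and at 0 to 1.89 RPKM (median 0) at high doses, with no overlap. Its difference on the log2 scale was -1.89 (SE 0.34, adjusted p = 0.0017, limma), from 17 and 4 reads. With a pseudocount of 5 the difference was -0.76 and fell short of 2-fold. tQ(CUG)M, a glutamine tRNA gene with a different anticodon from tQ(UUG)D2, was at 10.2, 8.35, 20.7 and 46.4 RPKM at low doses and at 3.63 to 11.6 RPKM (median 4.78) at high doses. The 0.25 nM library was its highest and the groups overlapped, with a log2 fold change of -1.54 (SE 0.46, adjusted p = 0.0252). It was not called without the 0.05, 50 or 500 nM library of experiment 2 (adjusted p up to 0.0618), or against the mock-treated libraries alone (adjusted p = 0.133).

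The 3 others were tE(UUC)M, a glutamate tRNA gene, and the leucine genes tL(CAA)L and tL(CAA)M, with log2 fold changes of -1.49, -1.37 and -1.18 (SEs 0.48, 0.47 and 0.37, adjusted p = 0.0353, 0.0445 and 0.0303, limma). They rest on 14 and 3, 45 and 29, and 9 and 4 reads at low and high doses. Of these only tL(CAA)L had groups that did not overlap. tE(UUC)M was not called without either 0 nM library, either 50 nM library, the 100 nM library of experiment 1 or the 0.25 or 500 nM library of experiment 2 (adjusted p up to 0.0930). tL(CAA)L lost its call without either 0 nM library, either 20 nM library or the 0.25 or 500 nM library of experiment 2 (up to 0.172), and tL(CAA)M without the 0.05, 20, 50 or 500 nM library of experiment 2 (up to 0.0673). The call of tL(CAA)M also depended on the block, without which its log2 fold change was -0.98 (adjusted p = 0.0631), and on the scaling, with -1.01 under quantile normalization (adjusted p = 0.0657). None of the 3 genes reached 2-fold with a pseudocount of 5. 5 of the 6 lower genes have a sequence found once in R64, the exception being tL(CAA)M.

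**Figure D4:**
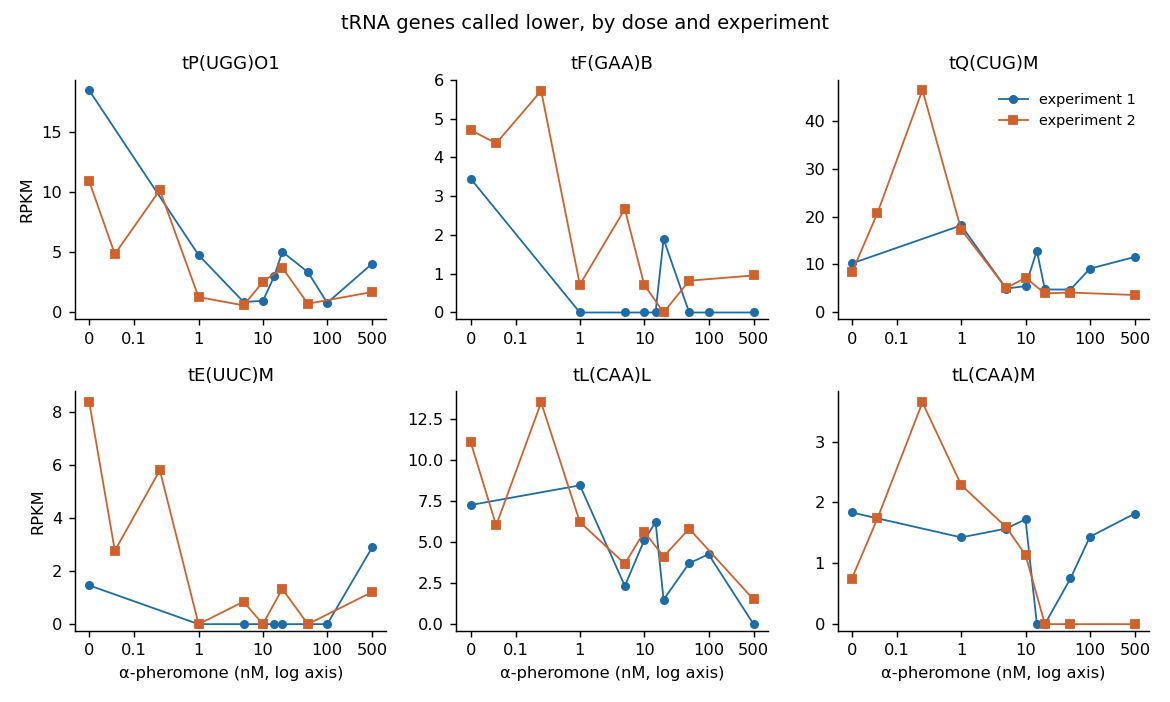
RPKM (linear axis) of the 6 tRNA genes called lower against the dose of α-pheromone in nM (log axis, with 0 nM at the left), 1 point per library, circles for experiment 1 and squares for experiment 2. tF(GAA)B is at 3.45 to 5.72 RPKM in the 4 libraries at 0.25 nM and under and at 0 to 1.89 RPKM from 20 nM on, while tQ(CUG)M is highest at 0.25 nM.

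At the single doses, 3, 4, 5 and 7 tRNA genes were called lower at 10, 20, 50 and 500 nM, where 1.1%, 2.8%, 5.72% and 7.11% of all genes were. Besides tP(UGG)O1, tE(UUC)M, tF(GAA)B and tL(CAA)L these were, named after their values were seen, tH(GUG)E1, tG(GCC)G2, tD(GUC)G2, tP(UGG)O3 and tS(UGA)E. No tRNA gene was called lower at 1 nM (0.0334% of all genes were).

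All 299 genes together had a summed RPKM of 653 ± 145 (SD, n = 4) at 0.25 nM and under and of 3595 ± 1551 (SD, n = 7) at 20 nM and above, a ratio of 5.51. The 9 genes with large rises went from 34.2 ± 16.4 to 3113 ± 1558, and their share of the sum from 2.50% in the mock-treated library of experiment 1 to 92.9% at 500 nM in experiment 2. The 290 other genes went from 619 ± 130 to 482 ± 78.7, a ratio of 0.780, and the ranges of 510 to 791 and 395 to 574 overlapped. In experiment 1 they were at 510 RPKM at 0 nM and at 395 to 574 RPKM at 20 nM and above. The low and high ranges in experiment 2 were 527 to 791 RPKM and 398 to 567 RPKM. For the 28 genes whose sequence is found once in R64, the sum fell from 70.7 to 154 RPKM at low doses to 31.6 to 58.8 RPKM at high doses, a ratio of 0.400 without overlap. 5 of these genes were themselves called lower in the same libraries, so this sum is not independent of those calls. These sums carry no test, and they were scaled by all mapped reads of a library.

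tK(UUU)K, a lysine tRNA gene on chromosome XI, was the highest of the genes not called, at 109 to 200 RPKM over all 18 libraries (median 144). It was at 133 ± 17.7 (SD, n = 4) RPKM at low and at 151 ± 28.8 (SD, n = 7) RPKM at high doses, with a log2 fold change of 0.19 (SE 0.15, adjusted p = 0.348, limma). The summed level of the 9 genes passed it at 5 nM in experiment 1 and at 10 nM in experiment 2.

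**Figure D5:**
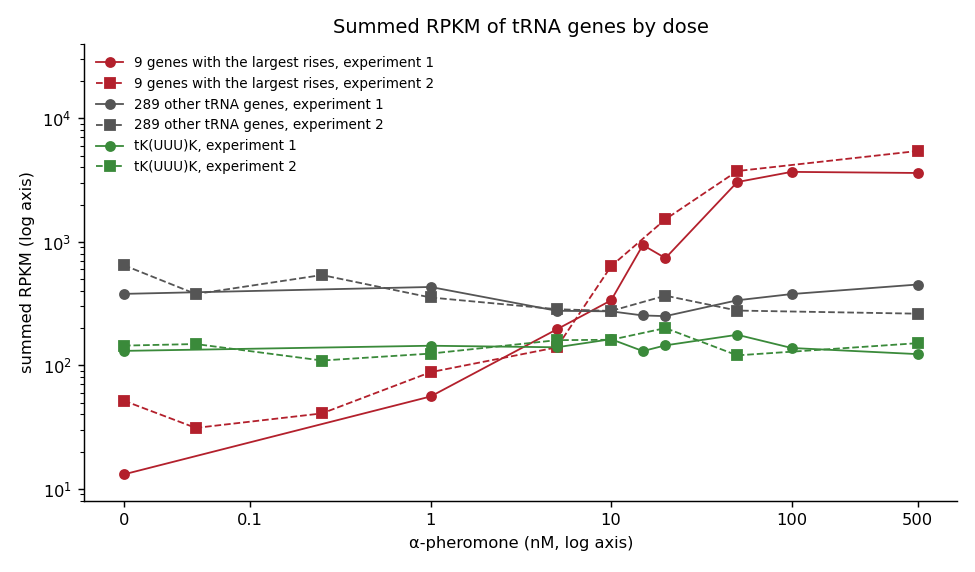
Summed RPKM (log axis) against the dose of α-pheromone in nM (log axis, with 0 nM at the left) for the 9 tRNA genes with the largest rises (red), tK(UUU)K (green) and the 289 other tRNA genes (grey), 1 point per library, circles and solid lines for experiment 1 and squares and dashed lines for experiment 2. The red points climb from 13.1 to 51.7 RPKM in the mock-treated libraries to 3610 and 5441 RPKM at 500 nM, and the green ones stay between 109 and 200 RPKM.

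By amino acid, genes called higher occurred for 10 of the 20 amino acids and genes called lower for 5. Without the 9 genes, the summed RPKM was lower at high than at low doses for 17 amino acids, among them serine (43.0 and 16.5 RPKM at low and high doses), glutamate (26.4 and 9.20), leucine (31.4 and 19.0) and valine (29.3 and 17.8). Of the serine sums, tS(AGA)D1 alone held 27.1 and 4.26 RPKM. In experiment 1 this gene had 2 reads at 0 nM and 1 to 10 reads per library at 20 nM and above, so its fall rests on experiment 2. The summed RPKM was higher at high doses for lysine (161 and 176), aspartate (27.8 and 34.0) and asparagine. These means have no test, and in most groups they rest on few reads. They pool the experiments, and most low-dose libraries are of experiment 2, so that dose and experiment are not separated in them.

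For each amino acid the uncalled gene with the highest mean was followed. tR(ACG)K was at 6.16 to 31.4 RPKM over the libraries, tH(GUG)G2 at 2.42 to 43.4, tD(GUC)K at 13.7 to 28.7, tA(AGC)K1 at 1.23 to 48.2 and tW(CCA)P at 4.83 to 18.3. Their log2 fold changes ran from -0.82 for tA(AGC)K1 to 0.37 for tD(GUC)K, with adjusted p values from 0.0748 to 0.954 (limma). tS(AGA)D1 had the largest fall that was not called, from 27.1 ± 22.5 (SD, n = 4) to 4.26 ± 2.99 (SD, n = 7) RPKM, -1.67 on the log2 scale (SE 0.62, adjusted p = 0.0584). In experiment 1 it had 2 reads at 0 nM and 2, 10, 3 and 1 at 20, 50, 100 and 500 nM. Experiment 2 had 51, 13 and 29 reads at 0, 0.05 and 0.25 nM, and 5, 3 and 3 at 20, 50 and 500 nM. tY(GUA)J1 passed the adjusted p (0.0378) with a change of -0.65 that stayed under 2-fold.

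The other genes chosen in this way were tE(UUC)E2, tF(GAA)P1, tG(GCC)P1, tI(UAU)L, tL(UAA)D, tM(CAU)E, tN(GUU)P, tP(UGG)N2, tQ(UUG)E1, tT(UGU)G2, tV(AAC)L and tC(GCA)G, with means of 1.23 to 9.68 RPKM. None was called, and the largest of their log2 fold changes was 1.34 for tN(GUU)P (SE 0.59, adjusted p = 0.10). tX(XXX)D, whose name gives neither amino acid nor anticodon, was at 1.71 to 9.55 RPKM. Over the 81 tested genes that were not called the median log2 fold change was -0.36, where that of all 6002 genes was -0.10.

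By the chromosome letter of the name, genes called higher lay on 9 of 16 chromosomes and genes called lower on 4. No chromosome held more than 2 of the higher genes (VII with tR(UCU)G3 and tG(GCC)G1, XIV with tP(UGG)N1 and tN(GUU)N1), and XIII held 3 of the 6 lower ones. Without the 9 genes, the summed RPKM was lower at high doses on 14 of the 16, with the experiments pooled and no test.

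The transcripts of the machinery that makes and uses tRNAs were taken as 6 lists. In the 6 lists of 119 genes (118 tested), 2 were called lower and 0 higher, against 4.4% and 2.28% of all genes. Among the lower ones, *SEN34*, a catalytic subunit of the tRNA splicing endonuclease, fell from 28.8 ± 2.67 (SD, n = 4) to 9.74 RPKM at high doses, a log2 fold change of -1.62 (SE 0.19, adjusted p = 8.3e-05, limma). YHR020W, a prolyl-tRNA synthetase, fell from 295 ± 4.02 (SD, n = 4) to 116 RPKM, a log2 fold change of -1.56 (SE 0.38, adjusted p = 0.0091), and it was not called against the mock-treated libraries alone (adjusted p = 0.0679). The 3 other subunits of the endonuclease, *SEN2*, *SEN15* and *SEN54*, named after their values were seen, had log2 fold changes of -0.14, -0.20 and -0.04, with adjusted p values of 0.279 to 0.598.

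Of the 17 subunits of RNA polymerase III none was called, and the largest changes were those of *RPC25* (-0.50, adjusted p = 0.0199) and *RPC19* (-0.46, adjusted p = 0.0205). At an adjusted p under 0.05 and any size of change, 25.9% of all genes were lower and 9.1% higher. By this measure 3 of the 17 subunits were lower, as were 8 of the 11 genes of the transcription factors and regulators of the polymerase, 3 of 13 of end processing, 2 of 9 of splicing and export, 16 of 45 of modification and 2 of 23 synthetases, and 1 gene of modification was higher. The 8 include *TFC1* and *TFC3*, subunits of TFIIIC, which binds the A and B boxes, at -0.80 (adjusted p = 3.2e-05) and -0.57 (adjusted p = 7.5e-05). *MAF1*, the repressor of the polymerase, which was named after its value was seen, was at -0.02 (adjusted p = 0.885).

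In the list of tRNA end processing (13 of 14 tested) none was called, with *RPP1* at -0.49 (adjusted p = 0.0230) and *POP6* at -0.46 (adjusted p = 0.0638) as the largest. Of 45 genes of tRNA modification none was called, with *TRM11* at -0.85 (adjusted p = 0.0147) and *DUS1* at -0.72 (adjusted p = 0.0070). The median log2 fold change of the 6 lists lay between -0.32 and -0.05, where that of all genes was -0.10.

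Other transcripts of RNA polymerase III, which are single-copy genes, gave a comparison. *SCR1*, the RNA of the signal recognition particle, was at 63215 ± 10290 (SD, n = 4) RPKM at low and at 58689 RPKM at high doses (log2 fold change 0.06, SE 0.07, adjusted p = 0.475, limma). *RPR1*, the RNA of ribonuclease P, was at 3078 and 2947 RPKM (0.05, adjusted p = 0.628). The fitted differences are within experiments, and their sign is opposite to that of the group means, since 3 of the 4 low-dose libraries are of experiment 2. Without the block they were -0.13 and -0.081. The spliceosomal snR6 was at 148 and 75.0 RPKM (-0.85, SE 0.61, adjusted p = 0.290, but 0.57 in experiment 1 alone), and snR52, a guide RNA for methylation, at 489 and 220 RPKM (-0.99, SE 0.17, adjusted p = 0.0014), just short of 2-fold, which it passed without the block (-1.14).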

How the data were processed

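Per the study's methods and the labels, total RNA was depleted of ribosomal RNA, reverse-transcribed with random hexamers and sequenced with strand information in reads of 50 bases. The authors mapped the reads to an Ensembl yeast genome (sacCer3 in the submitters' processing notes) and deposited RPKM values, calculated from strand-specific read densities and scaled by the mapped reads of each library. The methods name Bowtie 2 and the processing notes Bowtie 0.12.2. How reads that fit several positions were counted is not given in the sources used here.

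Low RPKM values were whole multiples of what 1 read is worth (99.3% to 99.8% of the values up to 100 reads lay within 0.02 of a whole number), and this gave the totals of mapped reads and the reads per gene. 151 gene names that occur more than once with identical values were kept once. Tests were run in R 4.3.3 with limma 3.58.1 (eBayes with trend) on log2(RPKM + 1) for genes with a mean of at least 1 RPKM, and fits and sequence work in Python 3.11.15 with numpy 2.4.6, scipy 1.17.1 and Biopython 1.88. The tests and the fit of EC50 were tested on simulated data. Exact 95% intervals of read ratios are conditional binomial (Clopper-Pearson) and cover counting error only, as PCR reads are not independent molecules.

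Experiments were independent biological replicates, each with a mock-treated culture of its own, and experiment entered the tests as a block. For 21 pairs of shared doses, deviations from the dose means correlated over genes at 0.178 to 0.466 within an experiment (mean 0.354). The libraries of a group are different doses, so their SD includes the effect of dose.

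tRNA loci, introns, LTRs and neighbouring genes come from the R64 annotation, and the tables hold no coordinates. LTR identity was taken from global alignments over aligned bases. Named are the called tRNA genes, for each amino acid the uncalled tRNA gene of the highest mean RPKM, same-strand neighbours within 1000 bases, and from each list the called genes or the 2 with the largest change. The members, lists and tests were chosen with earlier results of these data known. Alternatives were the pseudocount, the minimum RPKM, the scaling, the grouping of doses, limma-voom on recovered reads, no block, and single libraries or experiments left out.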

Additional observations from a re-analysis of the deposited data

Results flagged for a closer look

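In the groups of 4 libraries at 0.25 nM and under and of 7 at 20 nM and above, the distance between an extreme value and the value next to it was taken as a share of the whole range, with Dixon's critical values of 0.829 and 0.568 as limits. 5 of 76 groups of the named tRNA genes passed, where chance gives about 3.8. tH(GUG)E2 was at 6.91 RPKM at 0.05 nM in experiment 2, against 5.80 to 5.96 RPKM in the 3 other low libraries, a ratio of 0.85. tI(AAU)I2 was at 4.23 RPKM at 0.25 nM in experiment 2 and at 0 in the others, and tM(CAU)O1 was at 1.19 RPKM at 0 nM in experiment 2 and at 0 in the others, a ratio of 1 each. tA(AGC)K1 was at 48.2 RPKM at 0 nM in experiment 2, against 7.20 to 13.6 RPKM, a ratio of 0.843. tL(UAA)D was at 12.4 RPKM at 500 nM in experiment 1, the library with the fewest reads, against 0.889 to 4.09 RPKM in the 6 other high libraries, a ratio of 0.721.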

How the results depend on the processing

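The log2 fold changes of the 9 large rises stayed called under every alternative that was run on them (adjusted p at most 0.0478, limma). The smaller calls depended on the settings. In place of 6 lower genes, 3 were called with a pseudocount of 5, among them tP(UGG)O1 and tQ(CUG)M but none of the 4 others of the 6, and 1 with a mean of at least 10 RPKM. tN(GUU)N1 was not called in 8 of 22 alternatives, tE(UUC)M in 10 and tL(CAA)L in 14, and tL(CAA)M in 7 of 20.

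At single doses, the 1 higher call at 1 nM became 0 with no replicate block, a pseudocount of 5, no filter on low values or limma-voom, and a pseudocount of 5 or no filter gave 1 lower gene there instead of 0. limma-voom gave 2 higher genes at 5 nM, 5 lower genes at 10 nM and 4 at 500 nM. With no replicate block there were 2 lower genes at 20 nM and 3 at 50 nM. Leaving out the block also ended the call of tL(CAA)M, brought snR52 past the threshold, and moved no other count of calls by over 1.5 times. A pseudocount of 0.1 gave 1 lower gene at 10 nM and 2 at 20 nM, and one of 5 gave 2 at 20 nM, 1 at 50 nM and 3 at 500 nM. No filter gave 4, 8, 10, 11 and 19 lower genes at 5, 10, 20, 50 and 500 nM, and 4 tRNA genes with a higher change in experiment 2, and a mean of at least 10 RPKM gave 0 lower genes at each of these doses. Centring on the median and quantile normalization gave 3 lower genes each at 50 nM.

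With single libraries left out, the counts ranged from 10 to 13 higher and 2 to 6 lower genes for high against low doses, from 0 to 2 higher and 0 to 2 lower at 1 nM, from 2 to 6 and 1 to 2 at 5 nM, from 5 to 8 and 1 to 5 at 10 nM, from 7 to 10 and 1 to 7 at 20 nM, from 9 to 12 and 4 to 6 at 50 nM, and from 10 to 14 and 6 to 12 at 500 nM. The lowest count of lower genes, 2, was without the 500 nM library of experiment 2. The ratio of summed RPKM ranged from 4.93 to 6.13, and it was 0.400 with the genes whose sequence is found once. 1 gene of the pathway lists was called lower against the mock-treated libraries alone. The median EC50 of the 9 genes, 31.1 nM, was 10.3 nM with the fit on log2(RPKM + 1) and 25.5 nM without 500 nM. *RPR1* was at -0.081 and *SCR1* at -0.13 with no replicate block, and at -0.11 and -0.012 in experiment 1 alone, where snR6 was at 0.57. The causes were not tested. The mean of 236 nuclear tRNA genes was under 3 RPKM, which is few reads a library.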
